A study of Mus musculus with 9 samples.

Results

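A set of 10 genes of lipoprotein particles that lie outside the *Apoa1*-*Apoc3*-*Apoa4*-*Apoa5* cluster were followed in liver RNA from mice given an antisense oligonucleotide (ASO) against apoC-III. They were chosen by symbol, without use of their levels but with earlier results of these data known. They are *Apob*, *Apoe*, *Apoc1*, *Apoc2*, *Apoc4*, *Apoa2*, *Apoh*, *Apom* and *Apof*, together with *Mttp*, whose protein loads lipid onto apoB. These are 10 of the 51912 genes listed, and all 10 were above 0 in each of the 9 livers. The 9 mice were fasted and had the genotype *Apoe*-/- *Ndst1* f/f *Alb-Cre*+, and 5 were given weekly injections of the apoC-III ASO and 4 a control ASO. All 9 thus carried a knockout allele of *Apoe*, one of the 10 genes, and a *Cre* driven by the albumin promoter that deletes *Ndst1*, a heparan sulfate sulfotransferase gene, in hepatocytes. All were on a C57Bl/6 background, and the sources used here give no age and no diet for the sequenced livers. No liver with an intact *Apoe* or *Ndst1* gene was among the samples used here, so levels apply to this genotype only.

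Apolipoproteins are the proteins that coat lipoprotein particles, hold their lipid in solution and bind the enzymes and receptors that act on them. The liver builds VLDL around a single apoB molecule, which takes up triglyceride with the help of the microsomal triglyceride transfer protein encoded by *Mttp*, and the particle gains or loses apoE and the small C apolipoproteins in plasma. ApoA-II, apoM and apoF travel largely with HDL and other plasma particles, and apoH is a phospholipid-binding plasma glycoprotein that shares the name apolipoprotein but is best known as β2-glycoprotein I. The comparison asked whether lowering *Apoc3* RNA in the absence of apoE was accompanied by a change in the RNA of the other particle components.

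None of the 10 genes was called different between the ASO groups. Of the 10 estimates, 9 lay below 0, from −0.49 on the log2 scale for *Apoh* to −0.044 for *Apob*, and that of *Apom* lay above 0 at 0.096. The direction rests on how the livers were scaled to each other, since with the TPM as deposited 5 estimates were below 0 and after protein-coding rescaling without size factors only that of *Apoh* was, at −0.0088. A measure that needs no scaling is the level of each gene divided by that of *Apob* in the same liver. It separated the groups for *Apoh* only, as it did for 1.47% of all genes tested. By its level alone *Apoh* overlapped between the groups.

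Values are given as rescaled TPM. TPM, transcripts per 1000000, is a gene's length-corrected share of all RNA in its library, and here only nuclear protein-coding genes were kept, set to a total of 1000000 in each liver, with median-of-ratios size factors then applied. This was done because protein-coding genes made up only 1.94% to 8.64% of the deposited TPM of a liver, while the signal recognition particle RNAs *Rn7s1* and *Rn7s2* held 64.0% to 83.6%. How many reads lie behind a value cannot be recovered from TPM, so depth is unknown and no counting error is given. Control ASO replicate 4 stood apart, with the lowest protein-coding share and the lowest size factor (0.496, against up to 1.44), and values without it are given where they differ. Calls required a limma p, adjusted by the Benjamini-Hochberg method, under 0.05 together with a change over 1.5-fold, which 2 of the 11968 genes tested passed (0.0167%), both lower on the apoC-III ASO. Groups are given as mean ± SD with n = 5 for apoC-III ASO and n = 4 for control ASO, and replicates are livers of separate mice.

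The target of the ASO separated the groups without overlap. *Apoc3* RNA stood at 379, 431, 334, 622 and 485 rescaled TPM in apoC-III ASO replicates 1 to 5 and at 3370, 3169, 3479 and 4291 in control replicates 1 to 4, a mean 87.4% lower (exact two-sided permutation p = 0.0159, the smallest that 5 against 4 livers allow). Its log2 fold change was −3.01 (SE 0.23, limma adjusted p = 3.88e-04). The neighbors of *Apoc3* were not called, with log2 fold changes of −0.34 for *Apoa1*, 0.32 for *Apoa4* and −0.39 for *Apoa5*. *Ndst1* RNA was still listed in every liver, at 10.1 ± 1.44 on the apoC-III ASO and 8.52 ± 2.73 in controls (log2 fold change 0.27).

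The 10 genes lie on 7 chromosomes. In GRCm38 with GENCODE M21, *Apoc2* (chr7:19671579-19677941), *Apoc4* (chr7:19678083-19681479), *Apoc1* (chr7:19689481-19692660) and *Apoe* (chr7:19696109-19699188) form a cluster on the minus strand, with 141 bases between *Apoc2* and *Apoc4*, 8001 between *Apoc4* and *Apoc1* and 3448 between *Apoc1* and *Apoe*. The other 6 stand alone, *Apob* at chr12:7977648-8016835 and *Apoa2* at chr1:171225054-171226379 on the plus strand, *Mttp* at chr3:138089854-138144968 and *Apom* at chr17:35128997-35132050 on the minus strand, and *Apoh* at chr11:108343354-108414396 and *Apof* at chr10:128268671-128270153 on the plus strand. A further locus, *Gm44805* (chr7:19671584-19681423, minus strand), spans *Apoc2* and *Apoc4* and had 0 to 6.37 rescaled TPM on the apoC-III ASO and 2.45 to 5.15 on the control ASO. How reads shared with it were divided is not given in the sources used here, so the levels of *Apoc2* and *Apoc4* carry that uncertainty.

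Promoter sequence from RefSeq (GRCm38.p6) was at hand for 8 of the 10 genes, all except *Apoc1* and *Apof*. Of these, 4 windows are shown. *Apob* serves as the within-liver reference, *Apoh* is the gene whose level relative to *Apob* separated the groups, and *Apoc4* and *Mttp* are the pair with the most similar levels across livers. Each window holds the 150 bases before the RefSeq start on the coding strand, 5′ to 3′, at chr12:7977527-7977676 (plus), chr11:108395147-108395296 (plus), chr7:19681461-19681610 (minus) and chr3:138143419-138143568 (minus). Where the RefSeq start lies inside the GENCODE gene, part or all of the window is also inside that gene model. Capitals mark matches, on either strand, to CAAAGNNCA, letters shared by many sites of the hepatocyte factor HNF4A, or to AGGTCA, a nuclear receptor half-site. These 2 motifs can overlap, and N stands for any base.

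Apob: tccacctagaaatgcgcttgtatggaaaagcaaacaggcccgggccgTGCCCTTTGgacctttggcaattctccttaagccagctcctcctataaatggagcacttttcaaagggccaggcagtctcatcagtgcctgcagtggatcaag
Apoh: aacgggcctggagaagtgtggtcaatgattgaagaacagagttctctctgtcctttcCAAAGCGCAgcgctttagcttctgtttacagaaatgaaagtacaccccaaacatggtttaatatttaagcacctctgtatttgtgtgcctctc
Apoc4: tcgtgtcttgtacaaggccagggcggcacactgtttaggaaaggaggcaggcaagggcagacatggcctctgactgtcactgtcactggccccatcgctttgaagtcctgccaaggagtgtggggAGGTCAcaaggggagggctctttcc
Mttp: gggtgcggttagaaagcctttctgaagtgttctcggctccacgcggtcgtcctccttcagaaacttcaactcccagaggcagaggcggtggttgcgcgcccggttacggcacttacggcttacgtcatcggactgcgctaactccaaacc

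With positions counted back from the RefSeq start, the CAAAGNNCA letters began at −103 in *Apob*, on the minus strand, and at −93 in *Apoh*, on the plus strand. They occurred in 3.25% of the 32851 windows of the same length. AGGTCA began at −25 in *Apoc4* on the plus strand, and occurred in 8.58% of all windows. The *Mttp* window held neither. A match is a description of the letters and not evidence of a bound factor.

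Neither gene of VLDL assembly passed the test. *Apob*, which encodes the structural protein of VLDL and LDL, was at 667, 507, 691, 571 and 560 rescaled TPM in apoC-III ASO replicates 1 to 5 and at 634, 500.5, 581 and 771 in control replicates 1 to 4. The 5 apoC-III ASO values fell inside the range of the 4 controls. Its means were 599 ± 77.0 and 621 ± 114, and the log2 fold change was −0.044 (SE 0.21, 95% interval −0.50 to 0.41, limma adjusted p = 0.992), and 0.065 without control replicate 4. Leaving out control replicate 2 gave −0.14.

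*Mttp* was at 78.1, 70.2, 81.0, 149.6 and 105 on the apoC-III ASO and at 92.9, 111, 110.4 and 135 on the control ASO. Replicate 4 was the highest liver of each group, and the highest of all 9 was on the apoC-III ASO while the 3 lowest were too, so the groups overlapped. The log2 fold change was −0.26 (SE 0.25, 95% interval −0.80 to 0.29, limma adjusted p = 0.943). It was −0.16 without control replicate 4, and in the apoC-III ASO group leaving out replicate 2 gave −0.16 and leaving out replicate 4 gave −0.43.

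*Apoe* RNA was the lowest of the 10 in every group but was not at 0 in this knockout. It was at 37.5, 53.0, 30.9, 23.2 and 35.8 rescaled TPM on the apoC-III ASO and at 48.6, 64.1, 66.3 and 24.1 on the control ASO. Of the 4 controls, 3 lay above 4 of the 5 apoC-III ASO livers, but control replicate 4 lay below all except apoC-III ASO replicate 4. The log2 fold change was −0.43 (SE 0.33, 95% interval −1.14 to 0.28, limma adjusted p = 0.910). Leaving out control replicate 4 gave −0.75 (SE 0.27, limma unadjusted p = 0.0181, adjusted p = 0.856). Without control replicate 3 it was −0.27. Gene-level values do not show which part of the transcript the reads came from. In the deposited TPM *Apoe* was at 1.03 to 3.50 and at 0.233 to 4.04 in the apoC-III ASO and control ASO groups, so its levels rest on a small share of each library.

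*Apoc1*, a small exchangeable apolipoprotein that hinders particle uptake, was among the most abundant and was the most variable of the set. Its levels were 9298, 2707, 4232, 6971 and 4314 on the apoC-III ASO and 4664, 7026, 3600 and 9246 on the control ASO. The highest liver of each group was about level with that of the other, and the spread within groups (SD 0.656 on the log2 scale) exceeded the difference between them. The log2 fold change was −0.19 (SE 0.40, 95% interval −1.06 to 0.68, limma adjusted p = 0.978), and 0.035 without control replicate 4. It ran from −0.42 without control replicate 3 to that value as single livers were left out.

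*Apoc2*, which encodes the activating cofactor of lipoprotein lipase, was at 153, 80.5, 101, 105 and 116.5 on the apoC-III ASO and at 144, 154, 116 and 155 on the control ASO. In 3 apoC-III ASO livers it was below every control, and replicates 1 and 5 lay among the controls. On the log2 scale the difference was −0.38 (SE 0.22, 95% interval −0.86 to 0.11, limma adjusted p = 0.900), and −0.33 without control replicate 4.

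*Apoc4*, whose protein is a minor component of VLDL, was at 434, 278, 329, 766 and 446 on the apoC-III ASO and at 525, 553, 441 and 629.6 on the control ASO. The apoC-III ASO group held both the highest liver, replicate 4, and the 3 lowest. The difference was −0.33 on the log2 scale (SE 0.29, 95% interval −0.96 to 0.30, limma adjusted p = 0.925). Without apoC-III ASO replicate 4 it was −0.55 (limma unadjusted p = 0.0391, adjusted p = 0.702), and without replicate 2 of that group −0.18. Leaving out control replicate 4 gave −0.25. Across the cluster, the ratio of *Apoc4* to *Apoc2* was 3.58 to 4.06 in the controls and 2.84 to 7.28 on the apoC-III ASO, where replicate 4 was the only liver above 4.06. The ratio of *Apoc1* to *Apoc2* ran from 31.0 to 66.2 over the 9 livers, so these 3 neighbors did not keep fixed proportions.

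Among the genes of HDL and other plasma particles, *Apoa2*, the second most abundant HDL protein, was the highest of the 10. It was at 10050.0, 4047, 5589, 5871 and 5242 rescaled TPM on the apoC-III ASO and at 6740.2, 10829.9, 6374 and 6595 on the control ASO. A single liver in each group was far above the others, replicate 1 on the apoC-III ASO and replicate 2 on the control ASO, and the other 4 apoC-III ASO livers were below every control. The estimated log2 difference was −0.34 (SE 0.31, 95% interval −1.01 to 0.33, limma adjusted p = 0.936). It was −0.53 without apoC-III ASO replicate 1, −0.21 without apoC-III ASO replicate 2 and −0.16 without control replicate 2. Leaving out control replicate 4 gave −0.40.

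*Apom*, the carrier of sphingosine 1-phosphate in plasma, was at 233, 176, 182, 167 and 138 on the apoC-III ASO and at 178, 189.9, 175 and 125.8 on the control ASO. The groups overlapped over most of their range. The log2 fold change was 0.096 (SE 0.22, 95% interval −0.38 to 0.57, limma adjusted p = 0.984), −0.034 without control replicate 4 and 0.18 without apoC-III ASO replicate 5.

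*Apof*, also known as lipid transfer inhibitor protein, was at 525, 563, 618, 521 and 583 on the apoC-III ASO and at 721, 553, 731 and 776 on the control ASO. In 3 controls it was above every apoC-III ASO liver, and control replicate 2 lay among those livers. Its means were 562 ± 40.7 and 695 ± 97.9, with a log2 fold change of −0.30 (SE 0.19, 95% interval −0.72 to 0.12, limma adjusted p = 0.901). It varied least within groups, with an SD of 0.162 on the log2 scale. Without control replicate 4 the log2 fold change was −0.24.

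*Apoh* was at 1762, 1229, 1534, 1549.9 and 1501 on the apoC-III ASO and at 1867, 1685, 2040.3 and 3095 on the control ASO. Only apoC-III ASO replicate 1 was above a control, replicate 2, and control replicate 4 was the highest by far. Its means were 1515 ± 190.0 and 2172 ± 632, and the log2 fold change of −0.49 (SE 0.24, 95% interval −1.01 to 0.033, limma adjusted p = 0.883) was the largest in size of the 10. Its unadjusted p of 0.0640, the smallest of the 10, ranked 861 among the 11968 genes. Without control replicate 4 the log2 fold change was −0.30.

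**Figure D1:**
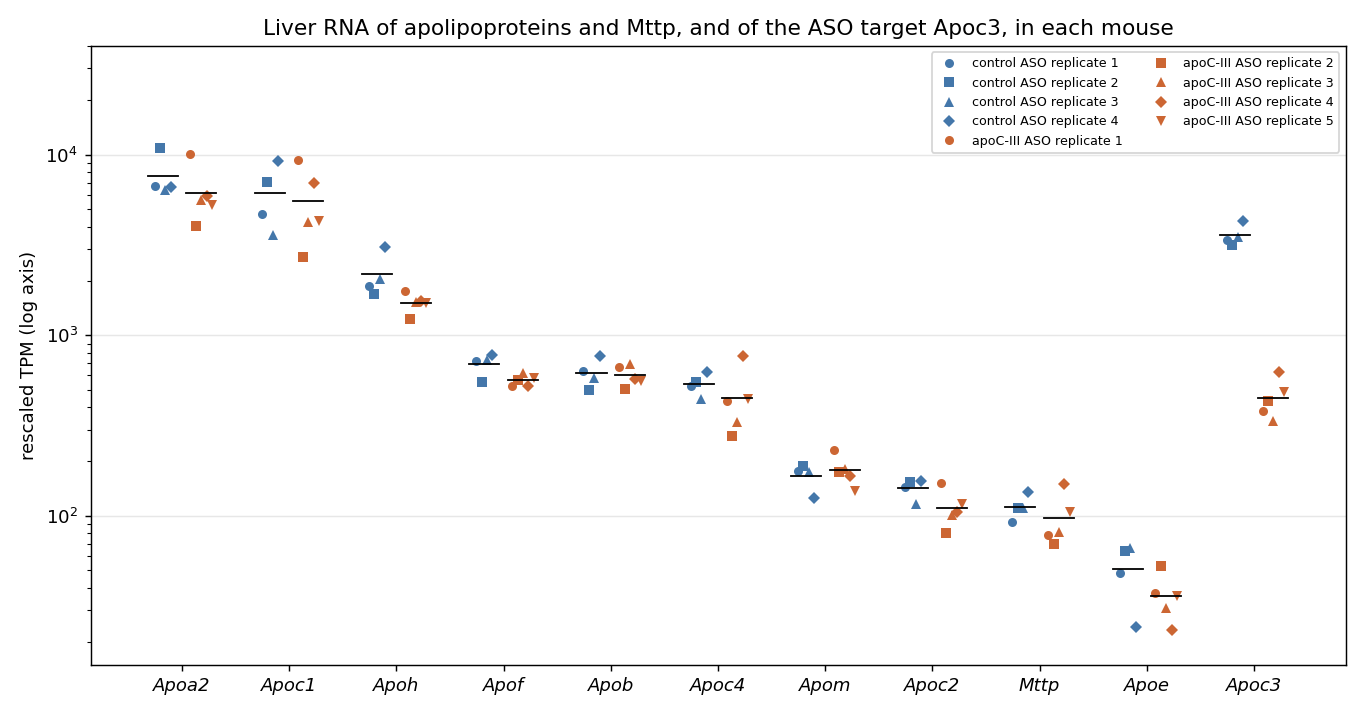
Rescaled TPM (log axis) of the 10 genes, ordered by mean level, and of *Apoc3* in each liver, with control ASO (blue) to the left of apoC-III ASO (orange), a symbol for each replicate number and a black line at each group's mean. The groups overlap for all 10 genes, whereas *Apoc3* stands at 334 to 622 on the apoC-III ASO and at 3169 to 4291 on the control ASO.

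The 10 genes covered a wide range of levels. TPM is corrected for length, so levels were ranked across genes, with less certainty for *Apoe*, *Apoc2* and *Apoc4*. Whether other differences between transcripts affect the order was not tested. For *Apoe* the part of the transcript that was read is unknown, and *Apoc2* and *Apoc4* may share reads with *Gm44805*. Over all 9 livers the mean was 6815 rescaled TPM for *Apoa2*, 5784 for *Apoc1*, 1807 for *Apoh*, 621 for *Apof*, 609 for *Apob*, 489 for *Apoc4*, 174 for *Apom*, 125 for *Apoc2*, 104 for *Mttp* and 42.6 for *Apoe*. *Apoc1* was above *Apoh*, *Apoh* above *Apof*, *Apoc4* above *Apom* and *Mttp* above *Apoe* in 9 of 9 livers. *Apom* was above *Apoc2*, and *Apoc2* above *Mttp*, in 8 of 9. *Apoa2* exceeded *Apoc1* in 7 of 9, *Apob* exceeded *Apoc4* in 7 of 9 and *Apof* exceeded *Apob* in 6 of 9, so those neighbors in the order did not differ beyond their spread.

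The genes also differed in how far they varied. The highest of the 9 livers was 1.49 times the lowest for *Apof*, 1.54 for *Apob*, 1.85 for *Apom*, 1.93 for *Apoc2* and 2.13 for *Mttp*. It was 2.52 for *Apoh*, 2.68 for *Apoa2*, 2.75 for *Apoc4*, 2.86 for *Apoe* and 3.43 for *Apoc1*. The median SD within groups was 0.323 on the log2 scale for the 10 genes, against 0.439 for all genes tested.

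Taking the 10 as a list, 0 were called, against 0.0167% of all genes tested. None had an unadjusted p under 0.05, against 5.57% of all genes, and none had groups without overlap, against 1.83% (0.911% with the apoC-III ASO group lower and 0.919% with it higher). The median log2 fold change was −0.32, against −0.0013 over all genes, of which 50.1% lay below 0. Without control ASO replicate 4 the median of the 10 was −0.25, against −0.0023 over all genes. Abundant genes as a whole leaned the same way, since among the 928 genes with a mean of at least 100 rescaled TPM the median was −0.13 and 618 lay below 0. The median of the 10 was 0.0040 with the TPM as deposited, where the median of all genes was 0.11, and 0.16 without size factors, where it was 0.41. The median of the 10 thus lay below that of all genes under each of these scalings, while the sign of a single gene's estimate depended on the scaling.

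**Figure D2:**
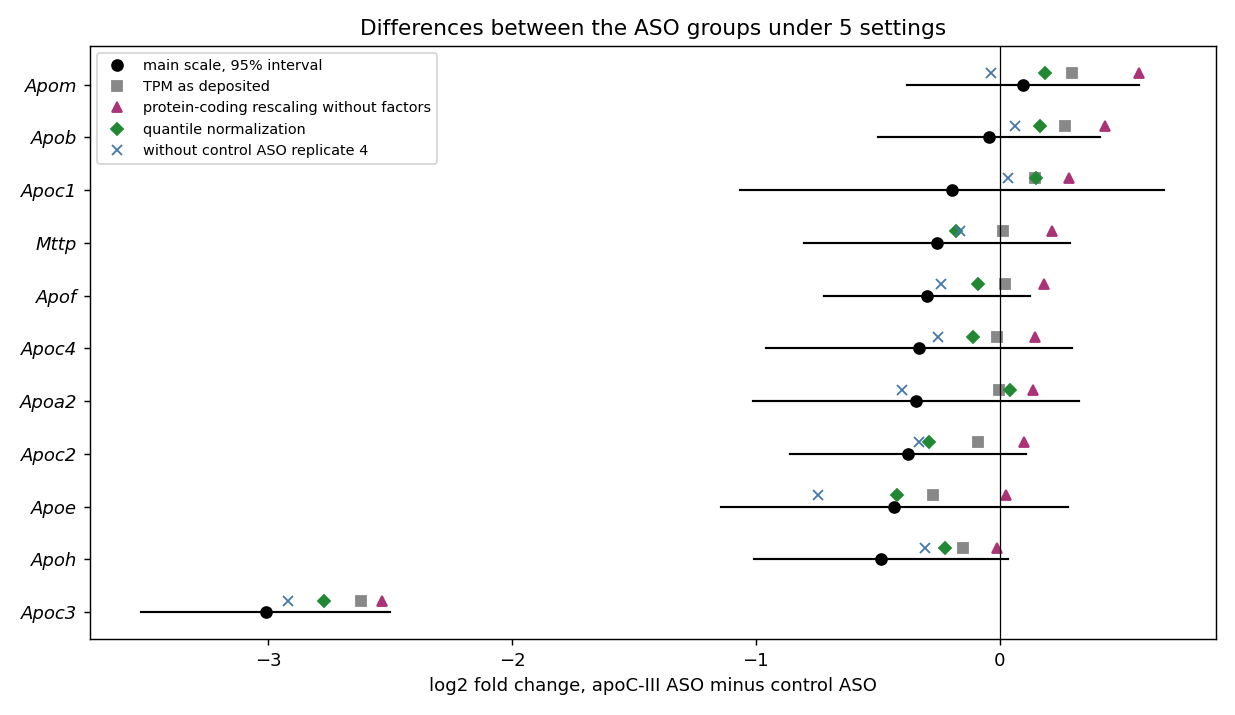
Log2 fold change (apoC-III ASO minus control ASO) of the 10 genes and *Apoc3* as reported, with 95% intervals (black), and under 3 other scalings and without control ASO replicate 4 (colored symbols). The intervals of all 10 genes include 0 and several symbols cross it, whereas *Apoc3* stays between −3.01 and −2.53.

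Dividing each gene by *Apob* in the same liver removes the scaling, although every ratio then carries the error of *Apob* itself. The ratio of *Apoh* to *Apob* was 2.64, 2.42, 2.22, 2.72 and 2.68 on the apoC-III ASO and 2.95, 3.37, 3.51 and 4.02 on the control ASO. Every apoC-III ASO liver was thus below every control, with means of 2.54 ± 0.210 and 3.46 ± 0.441, a ratio of 0.733. It was 1 of the 9 genes set against *Apob* to separate the groups, while 1.47% of all genes tested did so. The livers that overlapped in *Apoh* level were apoC-III ASO replicate 1 (1762) and control replicate 2 (1685). Their *Apob* levels were 667 and 500.5, the latter the lowest of the 9 livers. The ratio of *Apoc3* to *Apob* was 0.484 to 1.09 on the apoC-III ASO and 5.32 to 6.33 on the control ASO.

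For the other 8 genes the groups overlapped in this ratio. *Apof* was at 0.788 to 1.11 on the apoC-III ASO and 1.01 to 1.26 on the control ASO, and *Apoc2* at 0.146 to 0.229 and 0.200 to 0.309. *Apoe* ran from 0.0407 to 0.105 and from 0.0313 to 0.128. *Mttp*, the partner of apoB in assembly, ran from 0.117 to 0.262 and from 0.147 to 0.221, so the highest and the lowest liver were both on the apoC-III ASO.

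**Figure D3:**
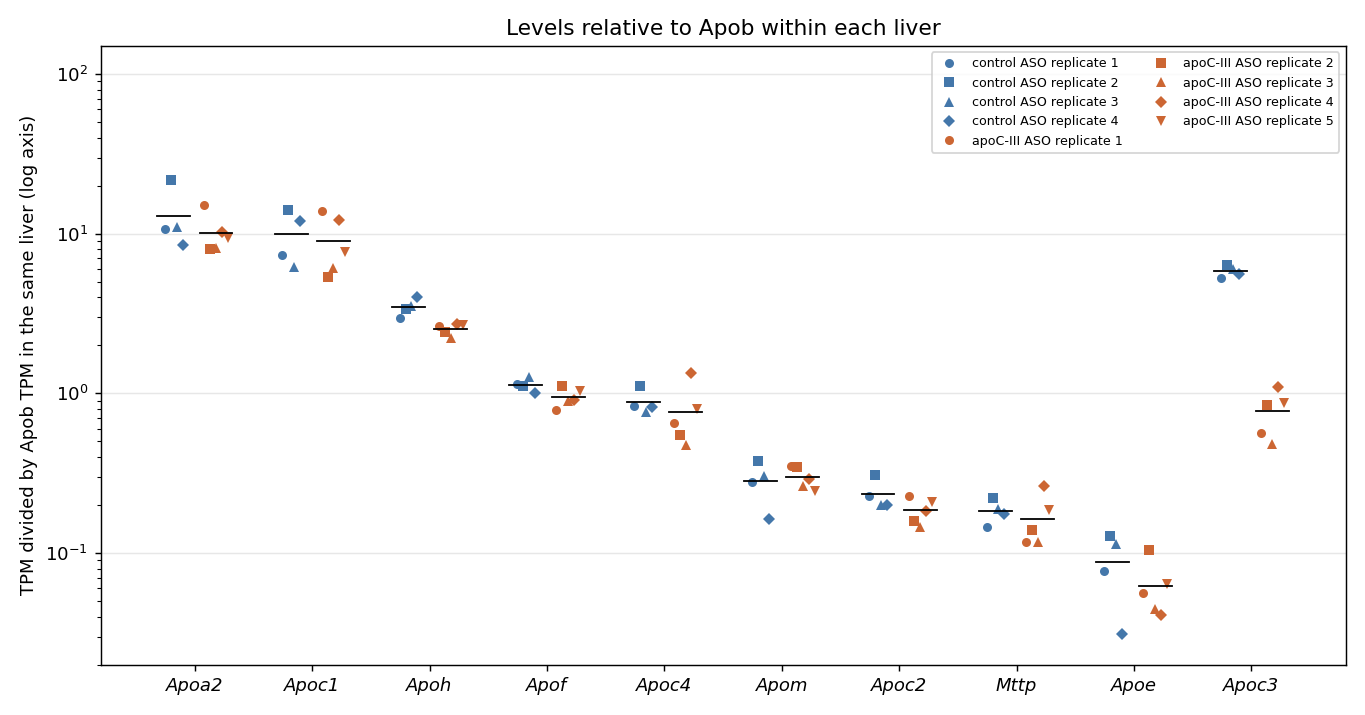
TPM of 9 genes and *Apoc3* divided by the TPM of *Apob* in the same liver (log axis), with control ASO (blue) left of apoC-III ASO (orange), a symbol for each replicate number and a black line at each group's mean. For *Apoh* all 5 apoC-III ASO livers, at 2.22 to 2.72, lie below the 4 controls, at 2.95 to 4.02, and the other 8 genes overlap.

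Likeness between genes was measured as the root mean square difference of their centred log2 levels over the 9 livers, where 0 means the same profile. Of the 45 pairs among the 10 genes, *Apoc4* and *Mttp* were the most alike at 0.191, followed by *Apob* and *Apof* at 0.196 and *Apoc2* and *Apoa2* at 0.228. The ratio of *Mttp* to *Apoc4* ran only from 0.177 to 0.252, although each gene alone varied more. Neighbors on chromosome 7 were less alike than these 3 pairs, at 0.356 for *Apoc2* and *Apoc4*, 0.399 for *Apoc1* and *Apoc2* and 0.421 for *Apoc1* and *Apoc4*. *Apoe* and *Apoc1*, also neighbors, were the least alike of all pairs at 0.955. The measure grows with a gene's own spread, and the SD within groups was largest for *Apoc1* (0.656) and *Apoe* (0.537). Ranked among all genes tested, *Apoc2* came at place 201 from *Apoc1* and *Apoc4* at place 279, against place 134 for *Apof* from *Apob*. *Apoc4* came at place 1405 from *Apoc2*, and *Apoc1* at place 10481 from *Apoe*. The median over the 45 pairs was 0.442. These livers share their scaling factors and the points are only 9, so the values describe these samples.

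Against all genes tested, the profile nearest to *Apob* was that of *Fam20b*, a xylose kinase of glycosaminoglycan synthesis (0.101), and *Rnaset2b* was also near (0.122). *Mttp* was nearest to *Nrbf2* (0.105), *Adk*, adenosine kinase (0.109), and *Gne*, an enzyme of sialic acid synthesis (0.133), and *Apoc4* to *Ung* (0.123), *Api5* (0.136) and the urea cycle gene *Otc* (0.142). *Apoh* was nearest to *Mier3* (0.120), *Upf3a* (0.129) and *Ces1g*, a carboxylesterase (0.135). *Apof* was nearest to *Mmp19* (0.0971), *Ppp1r18* (0.0990) and the glycerol channel gene *Aqp9* (0.113), and *Apom* to *Myo19* (0.0958), *Zkscan14* (0.113) and *Dicer1* (0.119). *Apoc2* was nearest to *Serpina1b* (0.118), *Impdh1* (0.134) and *Aqp1* (0.141), and *Apoa2* to *Tsr2* (0.179), *Car14* (0.181) and *Impdh1* (0.188). *Apoc1* was nearest to *Ech1*, an enzyme of fatty acid oxidation (0.188), *Ndufa5* (0.198) and *Tmem147* (0.215). *Apoe* was nearest to *Zfp868* (0.177), *Vps54* (0.190) and *Igsf6* (0.198). Each was picked as the nearest of 11968 genes, so the values describe likeness in these 9 livers only.

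The genes that act with these apolipoproteins were counted in 5 lists, and no gene of any list was called. In the list of VLDL assembly and secretion, 26 of 26 genes were tested, 14 estimates were above 0 and 12 below, and the median was 0.017. Only 1 had an unadjusted p under 0.05, *Ces1d*, a carboxylesterase that mobilizes stored triglyceride for VLDL, at 331 ± 162 on the apoC-III ASO and 704 ± 421 in controls (log2 fold change −1.09, limma adjusted p = 0.873). The *Ces1d* groups overlapped, with ranges of 153 to 508 on the apoC-III ASO and 469 to 1335 on the control ASO. *P4hb*, the subunit that keeps the *Mttp* product soluble, had a log2 fold change of −0.39, and *Soat2*, which makes the cholesteryl esters packed with apoB, had one of 0.75, both at an adjusted p of 0.883 in limma.

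For apoB mRNA editing, by which the liver of mice makes the short apoB48, 6 of 6 genes were tested, the median was 0.078 and the smallest unadjusted p was 0.169. The deaminase gene *Apobec1* stood at 62.2 ± 26.4 and 49.7 ± 15.5 (log2 fold change 0.29) and its cofactor gene *Rbm47* at 195 ± 70.7 and 170 ± 46.7 (0.14). *Syncrip* was at −0.12, *Khsrp* at 0.18 and *Celf2* at −0.62 on the same log2 scale.

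In the list of HDL formation and remodelling, 11 of 11 genes were tested, 5 estimates were above 0 and 6 below, and the median was −0.25. *Scarb1*, the HDL receptor that takes up cholesteryl ester, had a log2 fold change of 0.52 and *Abcg1*, a sterol exporter, of −0.50. *Pon1*, a lactonase carried on HDL, was at −0.63 and *Clu*, also called apolipoprotein J, at −0.44. The *Pon1* groups overlapped, at 692 to 1112 on the apoC-III ASO and 937 to 3040 on the control ASO. The smallest unadjusted p in this list was 0.0656.

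Of 12 other genes named for apolipoproteins, 8 were tested and the median was −0.25, while *Apod*, *Apol6*, *Apol8* and *Apold1* had means under 1. *Apol9a* had a log2 fold change of 0.70 (unadjusted p = 0.0268 and adjusted p = 0.876 in limma) and its close copy *Apol9b* of 0.52, and reads may be shared between those copies. *Apon* was at −0.37 and *Apobr*, a receptor for apoB48 particles, at −0.73.

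Among 17 transcription factors of apolipoprotein genes, all tested, 10 estimates were above 0 and 7 below, and the median was 0.020. *Hnf4a*, the factor most often placed upstream of apolipoprotein genes in hepatocytes, stood at 258 ± 54.5 and 198 ± 55.2 (log2 fold change 0.40). The LXR genes *Nr1h2* and *Nr1h3* were at 0.76 and −0.31, and *Ppara* at −0.25. The smallest unadjusted p was 0.119.

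**Figure D4:**
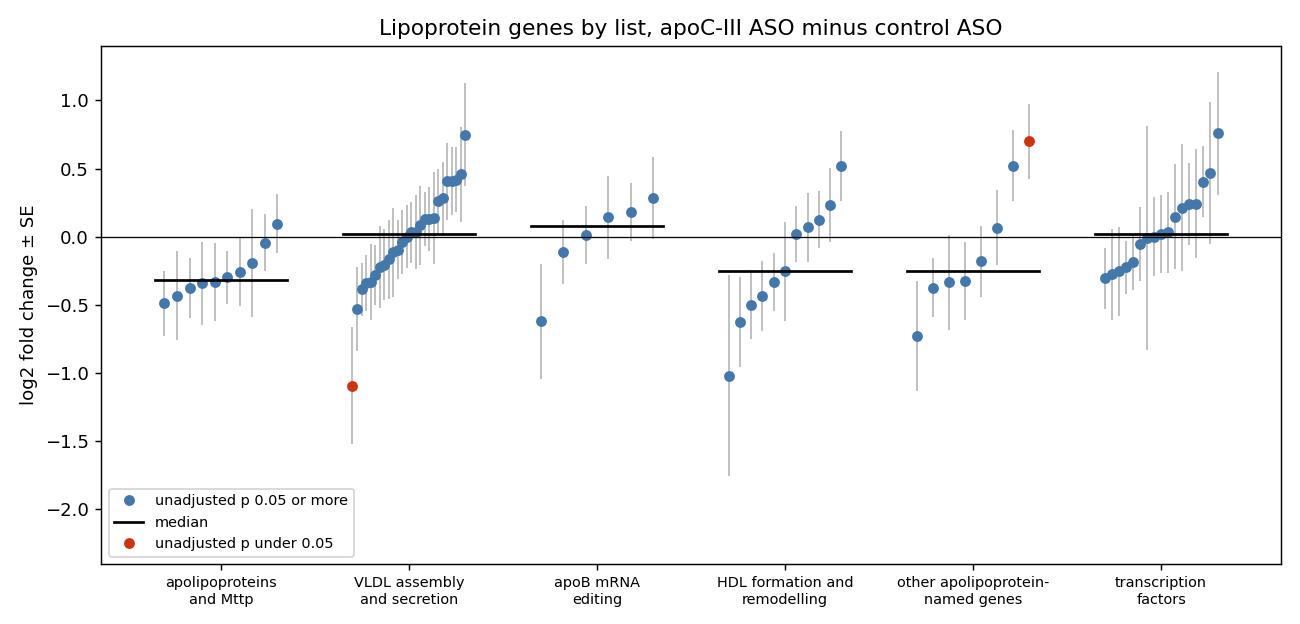
Log2 fold change with SE (apoC-III ASO minus control ASO) of each tested gene of the 10 apolipoprotein genes and the 5 lists, with a black line at each median and red for an unadjusted p under 0.05. Medians lie between −0.32 for the 10 genes and 0.078 for apoB mRNA editing, and 2 genes, *Ces1d* and *Apol9a*, are in red.

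In whole liver, fewer cells of a type and less RNA per cell cannot be told apart. Markers of hepatocytes, the cells that make most of these apolipoproteins, were all 10 above 0 in every liver and summed to 26998 to 59117 rescaled TPM on the apoC-III ASO and 35526 to 46291 on the control ASO. Their log2 fold changes ran from −0.82 to 0.21, with 3 above 0, 7 below and a median of −0.25. An unadjusted limma p under 0.05 was found for 2 of 10, *Serpina1c* at −0.82 and *Asgr1* at −0.57. Macrophages also transcribe *Apoe*, and their 12 markers summed to 141 to 216 and 128 to 209.8. Stellate cell markers summed to 119 to 146 and 136 to 257, with 1 estimate above 0 and 5 below. *Lrat* at −0.89 and *Dcn* at −0.57 were the 2 of 6 with an unadjusted limma p under 0.05. Sinusoidal endothelial markers summed to 117 to 354 and 158 to 306, and cholangiocyte markers to 37.9 to 81.3 and 41.0 to 121. Enterocytes also make *Apob*, *Mttp* and *Apoa4*, and their 5 markers summed to 32.2 to 88.5 and 31.5 to 47.6. The estimates of the 3 tested, *Apoa4* among them, were above 0, with a median log2 fold change of 0.44, and *Sis* was at 6.27 ± 5.26 and 1.62 ± 0.992 (log2 fold change 1.23, limma unadjusted p = 0.0338, adjusted p = 0.876). *Alpi* was listed at 0 in all 9 livers and *Vil1* in 3. The part of these shifts in the values of the 10 genes was not tested.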

How the data were processed

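RNA was isolated from 9 livers and made into stranded, ribo-depleted libraries. The authors deposited TPM for 51912 genes, which the submitters' notes tie to kallisto 0.43.1 and GRCm38, whereas the methods of the study name STAR, featureCounts and DESeq2, whose counts were not used here. Genes were matched to GENCODE M21 by identifier (51719, 99.63%). Nuclear protein-coding TPM was rescaled to 1000000 per liver, divided by median-of-ratios factors of the 12263 such genes above 0 in every liver, and compared as log2(value + 1) between the 2 groups by the lmFit and trended eBayes functions of limma 3.58.1 (R 4.3.3), without covariates. Fold changes are on that scale, which understates changes of low genes. The 11968 genes with a mean of at least 1 were tested, and p-values were adjusted over all of them. The limma fit and the calls were tested on simulated data, but the scaling was not. Labels give group and replicate number only.

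The members and lists were chosen with earlier results of these data known. Genes named beside the 10 were, per list, the 3 with the smallest p and the 2 with the highest level, and per member the 3 nearest profiles (1 of these is not reported here), while *Serpina1c*, *Asgr1*, *Lrat*, *Dcn* and *Sis* were named after their values were seen. Promoter windows came from RefSeq (GRCm38.p6). Python 3.11.15, pandas 2.3.3, scipy 1.17.1 and matplotlib 3.10.9 were used. Alternatives covered scaling, pseudocount, filter, eBayes options, array weights, a replicate block, thresholds and leaving out each liver.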

Additional observations from a re-analysis of the deposited data

Results flagged for a closer look

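Of 22 groups tested for a liver far from the rest (the 10 genes and *Apoc3* in each ASO group), 1 stood out. *Apoa2* in control ASO replicate 2 was at 10829.9 rescaled TPM, against 6374 to 6740.2 in the other 3 controls. Chance marks about 1 in 20 groups by this measure. Without that liver the groups still overlapped, since apoC-III ASO replicate 1 was at 10050.0. The log2 fold change of *Apoa2* was −0.34 with all livers, −0.16 without that control and −0.53 without apoC-III ASO replicate 1.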

How the results depend on the processing

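No member and no gene of the 5 lists was called under any of the 24 alternatives, 1 of which (size factors from genes with a mean of at least 100) was chosen after seeing the data. The lowest adjusted p of any member under any alternative was 0.480. Genes called over the whole table numbered 11 with the TPM as deposited (5 higher, 6 lower), where *Apoc3* had a log2 fold change of −2.62 and an adjusted p of 0.104, and 1 without size factors, without a filter or without the eBayes trend. Leaving out 1 liver gave 1 to 3. The sign of several estimates turned. With the TPM as deposited *Apob* was at 0.27, *Apoc1* at 0.14, *Apof* at 0.023 and *Mttp* at 0.012. Without size factors *Apob* was at 0.43, *Apoe* at 0.028, *Apoc1* at 0.29, *Apoc2* at 0.099, *Apoc4* at 0.15, *Apoa2* at 0.14, *Apof* at 0.18 and *Mttp* at 0.22. With quantile normalization *Apob* was at 0.17, *Apoc1* at 0.15 and *Apoa2* at 0.043. *Apob* was at 0.028 with array weights and 0.10 with factors from abundant genes. Leaving out 1 liver gave −0.14 to 0.065 for *Apob*, −0.42 to 0.035 for *Apoc1* and −0.034 to 0.18 for *Apom*. The other 7 stayed below 0, at −0.75 to −0.27 for *Apoe*, −0.50 to −0.27 for *Apoc2*, −0.55 to −0.18 for *Apoc4*, −0.53 to −0.16 for *Apoa2*, −0.60 to −0.30 for *Apoh*, −0.40 to −0.24 for *Apof* and −0.43 to −0.16 for *Mttp*. The cause was not tested. *Apoh* stayed below 0 in all alternatives that give an estimate, from −0.60 to −0.0088.

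Same-numbered livers of both groups correlated at 0.0673, 0.119, 0.0280 and 0.190 in their deviations from the group means, so the numbers were not taken to pair them. Control replicates 2 and 4 correlated best with their own number, and control replicates 1 and 3 did not. With the replicate number as a block, which drops apoC-III ASO replicate 5, 3 genes were called (1 higher, 2 lower), 0 of them members, and *Apoh* was at −0.49. Depth is unknown. A call asked for more than a 95% interval clear of 0, since 667 genes had an unadjusted limma p under 0.05 and 2 were called. With 9 livers, changes inside those intervals and many beyond them could thus go uncalled.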
